A study of Mus musculus with 2 samples.

Results

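A group of tumour fibroblasts with high thrombospondin 4 (Thbs4) messenger RNA was described in mouse pancreatic cancer by droplet single-cell RNA sequencing of the 3′ ends of transcripts. Its members, called Thbs4 cells here, were 340 of 2573 cells of the tumour library that passed the cell filters, and 340 of 7189 such cells in the whole series. They were chosen in steps. Cells needed at least 500 genes, at least 1000 UMIs (unique molecular identifiers, which count captured transcripts) and at most 10% mitochondrial UMIs. A fibroblast rule then asked for at least 50 UMIs per 10000 from Col1a1, Col1a2, Col3a1, Dcn and Lum together, under 10 per 10000 from Krt8, Krt18 and Krt19, and at most 1 UMI from Ptprc, Pecam1 and Cdh5. Of the 2261 tumour fibroblasts left, those with Thbs4 at 5 per 10000 UMIs or more were taken. Thbs4 and the genes of the fibroblast rule chose the cells, so their values are a description.

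Both libraries came from Rosa26mTmG/+;Fabp4-Cre mice, in which cells that have had active Cre at some time carry green fluorescent protein (GFP). The tumour library held cells sorted for GFP and for the surface protein PDPN, 21 days after FC1245 pancreatic cancer cells had been placed in the pancreas of mice that were 8 weeks old. The normal library held cells sorted for GFP alone from the healthy pancreas of mice aged 6 to 9 weeks. There was 1 library per group, and the labels do not give the number of mice behind each. Digestion and gate also differed. A Y-linked UMI was found in 1 tumour fibroblast and in 791 normal fibroblasts by the same rule, so the sex of the cells differed too. Disease, sex, digestion, gate and library thus cannot be told apart in any comparison with normal cells. The Fabp4 promoter that drives Cre is also active in adipocytes, macrophages and capillary endothelium, so GFP alone does not define a stellate cell.

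Fibroblasts lay down collagen, elastic fibres and the proteins that organise them, and in pancreatic tumours they take on several states, among them contractile cells with smooth muscle actin (Acta2) and cells that secrete cytokines. THBS4 is a secreted matricellular protein best known from tendon, muscle and injured heart, where it sits among collagen fibrils and binds other matrix proteins.

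Thbs4 cells were compared with 3 groups that met every other part of the rule. These were the 1921 other tumour fibroblasts, the 209 of them with Acta2 at 5 per 10000 UMIs or more (Acta2 tumour fibroblasts), and 1499 normal fibroblasts. The 1712 tumour fibroblasts under both thresholds are called the remaining tumour fibroblasts. Levels are CPM, the UMIs of a gene summed over the cells of a group and scaled to a sum of 1000000. Folds are ratios of CPM with an exact 95% interval that covers counting error only, not differences between mice. With 1 library per group there is no test and no p-value. A gene was counted as 2-fold apart where the fold was at least 2, the interval excluded 1 and the mean of the 2 CPM was at least 20. All tumour groups share 1 library, so the comparisons among them share digestion, gate and sequencing, and the Acta2 tumour fibroblasts are also part of the other tumour fibroblasts.

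Thbs4 cells made up 15.04% of the tumour fibroblasts (exact binomial 95% interval 13.6 to 16.6%, counting error only). None of the 1499 normal fibroblasts met the threshold, which allows a share of up to 0.200%. This limit, here and for immune cells, is 3 cells of the total and not the exact interval. The median Thbs4 cell held 12230 UMIs and 3405.5 genes, against 9865 UMIs and 2955 genes in other tumour fibroblasts, 28203 UMIs in Acta2 tumour fibroblasts and 9016 UMIs in normal fibroblasts. Summed UMIs were 4518046 in Thbs4 cells, 24783852 in other tumour fibroblasts, 6044632 in Acta2 tumour fibroblasts and 14381431 in normal fibroblasts. Depth moved with membership without a single direction. The share of Thbs4 cells was 4.60%, 15.6%, 29.2% and 10.8% in 4 equal parts of the cells, from the fewest to the most UMIs per cell, and the part of depth in membership was not tested. The libraries shared 4 cell barcodes, and 0 of them were Thbs4 cells. Of the Thbs4 cells, 5 were among the top doublet scores of the library (1.47%), against 1.67% of other tumour fibroblasts, and no cell was removed for its score.

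Thbs4 transcripts were concentrated in few cells. The 340 Thbs4 cells held 9727 Thbs4 UMIs, other tumour fibroblasts 679 and normal fibroblasts 1. Members thus carried 93.5% of the Thbs4 UMIs of all tumour fibroblasts but 15.4% of their UMIs. Single members ranged from 5.02 to 105.1 Thbs4 UMIs per 10000, with quartiles of 9.23, 15.6 and 26.5. In raw counts they held 2 to 191 Thbs4 UMIs, with a median of 19. Most membership therefore rested on many molecules: 271 members had at least 10 Thbs4 UMIs, 13 had under 5 and 3 had no more than 2. Below the threshold, 265 tumour fibroblasts had a Thbs4 UMI and 1656 had 0, so that 605 of 2261 (26.8%) had a UMI. Among 91 tumour immune cells of the same library (at least 2 Ptprc UMIs and under the fibroblast sum), 0 had a Thbs4 UMI, which allows a share of up to 3.30%. The median depth of these immune cells was 5231 UMIs, lower than that of the fibroblasts. Among 77 tumour endothelial cells (at least 2 Pecam1 or Cdh5 UMIs and under the fibroblast sum), 2 had a Thbs4 UMI (2.60%, exact interval 0.316 to 9.07%).

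**Figure D1:**
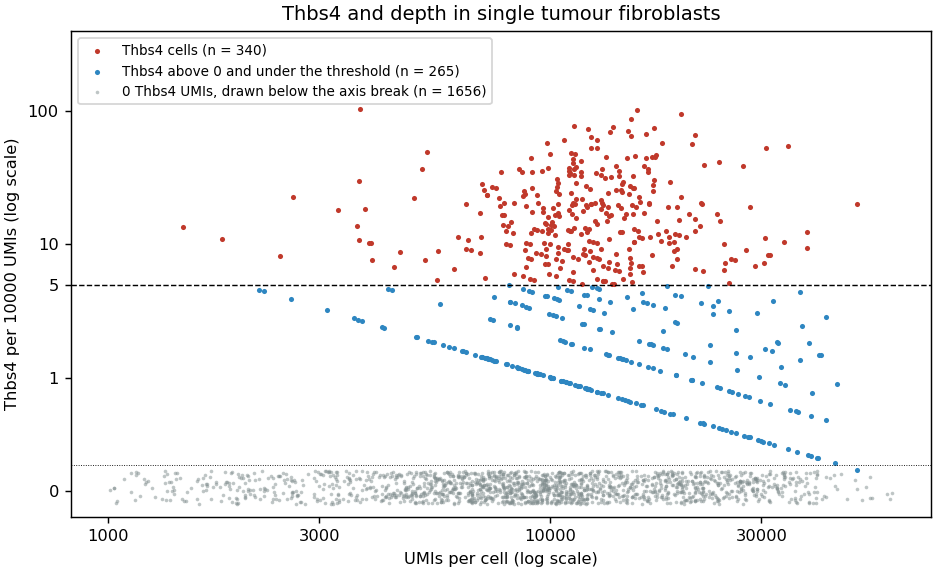
Thbs4 UMIs per 10000 (y axis, log scale) against UMIs per cell (x axis, log scale) for each of the 2261 tumour fibroblasts. Red points are the 340 Thbs4 cells, blue points the 265 cells with a Thbs4 UMI under the threshold of 5 (dashed line), and grey points, spread below the dotted axis break, the 1656 cells at 0; members reached 105.1 per 10000.

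The threshold cut a continuous range of Thbs4 levels. The 19 cells at 5 to under 6 per 10000 had 1520 CPM of Cilp, 2443 CPM of Eln and 1025 CPM of Igfbp5. The 26 cells just outside, at 4 to under 5, had 1682 CPM of Cilp, 1820 CPM of Eln and 224 CPM of Igfbp5. Cells on either side were close in Cilp and further apart in Igfbp5, and neither side held a Smpd3 UMI. The given marks were higher just inside: Tnc was at 478 CPM inside and 237 outside, Tagln at 1290 and 883, and Col1a1 at 8596 and 5619.

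Thbs4 (ENSMUSG00000021702) lies on the minus strand of chromosome 13 at 92751590 to 92794818 of GRCm38, the assembly behind mm10. Cilp (ENSMUSG00000042254), the cartilage intermediate layer protein, lies on the plus strand of chromosome 9 at 65265180 to 65280605. The 250 bases before their starts are shown because Thbs4 chose the cells and Cilp was among the named genes with the highest folds in them. That choice says nothing on shared control of the genes, which was not tested. Sequences are from RefSeq (GRCm38.p6), 5′ to 3′ on the strand of the gene, and capitals mark E-boxes (CANNTG, searched on both strands).
Thbs4, chr13:92794819-92795068: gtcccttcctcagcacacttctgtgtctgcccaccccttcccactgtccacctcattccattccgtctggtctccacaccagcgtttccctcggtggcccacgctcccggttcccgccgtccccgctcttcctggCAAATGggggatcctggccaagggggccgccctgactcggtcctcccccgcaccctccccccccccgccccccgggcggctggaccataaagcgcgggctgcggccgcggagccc
Cilp, chr9:65264930-65265179: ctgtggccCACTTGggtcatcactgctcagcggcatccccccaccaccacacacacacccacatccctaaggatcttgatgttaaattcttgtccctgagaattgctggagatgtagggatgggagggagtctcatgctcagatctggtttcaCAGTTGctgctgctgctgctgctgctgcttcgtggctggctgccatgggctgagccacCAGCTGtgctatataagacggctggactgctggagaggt
The Thbs4 window held 1 E-box and the Cilp window 3, and 66.2% of the 32851 RefSeq mouse promoter windows of this length held at least 1. The letters TATAA occurred at 28 bases before the start of Cilp and nowhere in the Thbs4 window, and 22.8% of windows held them on either strand. The letters CAGAC, bound by SMAD proteins, occurred at 2 places and GGAATG, bound by TEAD proteins, at 2 places that share 1 base, all in the Thbs4 window and at 0 places in the Cilp window. Of all windows, 42.2% held CAGAC and 12.6% held GGAATG on either strand. These matches are letters only. The Thbs4 window was rich in G and C (70.8%), the Cilp window less so (56.0%), and the median window had 52.4%.

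In summed UMIs, Col1a1 and Dcn were not at their highest in Thbs4 cells. Col1a1, the main chain of type I collagen, was at 6476 CPM in Thbs4 cells, against 8674 in other tumour fibroblasts and 2149 in normal fibroblasts. The median cell went the other way within the tumour, with 44.2 Col1a1 UMIs per 10000 in Thbs4 cells and 33.8 in other tumour fibroblasts. Other tumour fibroblasts were more spread, with quartiles of 32.6 and 63.8 in Thbs4 cells and of 17.7 and 73.2 in the others. Dcn (decorin) was at 3569 CPM in Thbs4 cells, against 6334 and 14795 in the same groups. Fibroblast genes outside the rule were present in all groups. Pdgfrb was at 232 CPM in Thbs4 cells and 149 in other tumour fibroblasts, Pdgfra at 233 and 337, and Pdpn, the gene of the sort, at 359 and 437. The contractile gene Tagln (transgelin) and the matrix gene Tnc (tenascin C) were given with Thbs4 as marks of these cells. Tagln was at 1427 CPM in Thbs4 cells, against 886 in other tumour fibroblasts (1.61-fold, 1.57 to 1.66), and Tnc at 833 against 684 (1.22-fold, 1.17 to 1.26). Neither was 2-fold apart, but more Thbs4 cells held them. Tagln UMIs were found in 69.4% of Thbs4 cells and 28.5% of other tumour fibroblasts, and in 62.3% and 27.2% after each cell was thinned to 5000 UMIs. The share was 2.20% in the tumour immune cells, which should lack the gene, at a median depth of 5231 UMIs.

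The cells that the Thbs4 threshold picked lay together on the other genes. Neighbours were the 15 nearest tumour fibroblasts over 30 principal components of 2000 variable genes, with Thbs4 left out. On average 60.5% of the neighbours of a Thbs4 cell were Thbs4 cells, against 8.20% of the neighbours of other tumour fibroblasts and 15.04% of all tumour fibroblasts. With every cell thinned to 5000 UMIs the shares were 60.2%, 9.33% and 17.2%. At least 50% Thbs4 neighbours were found around 236 of the 340 Thbs4 cells (69.4%) and 103 of 1921 others (5.36%). The share of Thbs4 neighbours went up with the Thbs4 level of the cell itself. It was 5.29% in cells at 0, 26.4% in cells above 0 and under 5 per 10000, 48.8% at 5 to under 10, 58.9% at 10 to under 20 and 70.7% at 20 or more.

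**Figure D2:**
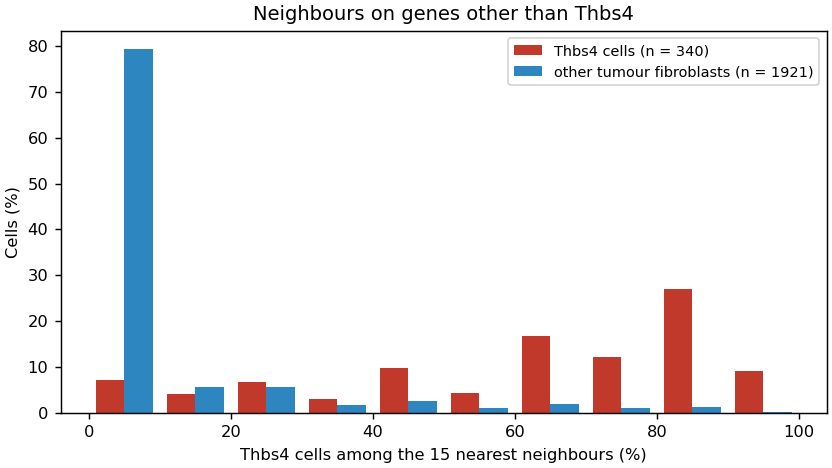
Share of Thbs4 cells among the 15 nearest neighbours of each cell (x axis, percent, bins of 10) with Thbs4 left out, as percent of cells (y axis) of each group. Red bars are the 340 Thbs4 cells and blue bars the 1921 other tumour fibroblasts; most others had under 10% Thbs4 neighbours, while the mean over Thbs4 cells was 60.5%.

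Clustering of the same neighbours (Leiden, resolution 0.5) put 274 of the 340 Thbs4 cells (80.6%) into 1 cluster of 477 cells. The rest were spread over 4 other clusters, with 27, 20, 11 and 8 members, and clusters of 375 and 159 cells had 0. Within the main cluster 57.4% of cells were members, and 96 of its 203 other cells had a Thbs4 UMI under the threshold. At a resolution of 1, 228 members (67.1%) shared a cluster of 332 cells.

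Among 5658 genes measured in Thbs4 cells and other tumour fibroblasts, 87 were at least 2-fold higher in Thbs4 cells (1.54%) and 141 at least 2-fold lower (2.49%), 4.03% in all. The median log2 fold of all genes was 0.03. The 12 named genes with the highest folds included proteins of the matrix, signalling proteins and a transcription factor. Cilp was at 2345 CPM in Thbs4 cells and 621 CPM in other tumour fibroblasts, 3.77-fold higher (3.68 to 3.87). It was at 279 CPM in Acta2 tumour fibroblasts, 732 in the remaining tumour fibroblasts and 102 in normal fibroblasts, so Thbs4 cells were above every other group. Nearly every member took part: Cilp UMIs were in 98.8% of Thbs4 cells and 63.3% of other tumour fibroblasts, in 97.5% and 56.5% after thinning, and in 2.20% of the immune cells. The lower quartile of Cilp among Thbs4 cells, 12.96 per 10000, was above the upper quartile of other tumour fibroblasts, 10.2.

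Fmod (fibromodulin), which binds collagen fibrils, was at 144 CPM in Thbs4 cells and 32.8 in other tumour fibroblasts (4.38-fold, 3.94 to 4.86). Ltbp2, a protein of elastic microfibrils, was at 221 and 48.8 CPM (4.52-fold, 4.15 to 4.92). Tgfbi, a secreted matrix protein induced by TGF-beta, was at 146 and 27.1 CPM (5.38-fold, 4.82 to 6.00). Tgfbi was also at 366 CPM in the tumour immune cells. The summed level of 11 macrophage genes was 17.3 CPM in Thbs4 cells and 16.8 CPM in other tumour fibroblasts. The part of RNA from immune cells in the Tgfbi difference was not tested. Col8a2, a chain of type VIII collagen, was at 76.6 and 16.1 CPM (4.74-fold, 4.10 to 5.49). Adamts8, a secreted metalloprotease, was at 44.0 and 11.7 CPM (3.76-fold, 3.13 to 4.52).

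Other genes near the top act in signalling or in the nucleus. Igfbp5, which binds insulin-like growth factors, was at 619 CPM in Thbs4 cells and 114 in other tumour fibroblasts (5.43-fold, 5.15 to 5.72). Meox1, a homeobox transcription factor, was at 58.4 and 9.80 CPM (5.96-fold, 4.99 to 7.12). Tac2, the precursor of the neuropeptide neurokinin B, was at 54.2 and 6.70 CPM (8.10-fold, 6.62 to 9.92). Unc5c, a netrin receptor, was at 64.6 and 15.3 CPM (4.22-fold), Bace2, an aspartic protease, at 59.98 and 13.1 CPM (4.59-fold), and Wipf3, a partner of actin regulators, at 42.7 and 11.2 CPM (3.82-fold). Members without a UMI were common for some of these genes. Of the 340 Thbs4 cells, 283 had no Tac2 UMI, 247 no Meox1 UMI and 202 no Igfbp5 UMI, whereas 4 had no Cilp UMI and 9 no Eln UMI. A gene as low as Tac2 or Meox1 is missed in many cells by sampling alone. The part of sampling in these counts was not tested.

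The 12 named genes with the lowest folds included Clec3b and Ly6c1 of the adventitial fibroblast list. Smpd3, a neutral sphingomyelinase, had 2 UMIs in 1 Thbs4 cell and 1692 UMIs in other tumour fibroblasts, which is 0.443 and 68.3 CPM and 154 times lower (42.6 to 1275). Smpd3 was almost as low in Acta2 tumour fibroblasts, with 4 UMIs or 0.662 CPM, so it did not separate Thbs4 cells from these. Fabp4, a carrier of fatty acids and the gene behind the Cre driver of these mice, was at 4.65 CPM in Thbs4 cells, against 64.6 in other tumour fibroblasts (13.9 times lower, 9.07 to 22.5). Clec3b (tetranectin) was at 47.1 and 353 CPM (7.49 times lower, 6.54 to 8.62). Efemp1 (fibulin-3) was at 48.7 and 289 CPM (5.93 times lower, 5.19 to 6.82). Spon2, a secreted spondin, was at 11.3 and 97.3 CPM (8.62 times lower, 6.53 to 11.6).

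Clu (clusterin), a secreted chaperone, was at 10.4 CPM in Thbs4 cells and 86.3 in other tumour fibroblasts (8.29 times lower). Dkk2, a secreted modulator of Wnt signals, was at 4.87 and 38.5 CPM (7.90 times lower), and Cadm4, an adhesion molecule, at 7.97 and 53.0 CPM (6.65 times lower). Both were at their highest in Acta2 tumour fibroblasts, Dkk2 at 70.8 CPM and Cadm4 at 133 CPM. Adh1, an alcohol dehydrogenase that acts on retinol, was at 13.3 and 74.8 CPM (5.64 times lower), Nov (CCN3) at 6.86 and 37.5 CPM (5.47 times lower), and Steap4, a metalloreductase, at 24.8 and 134 CPM (5.42 times lower). Ly6c1, a surface protein, was at 56.0 and 325 CPM (5.80 times lower), a value that is uncertain because reads may be shared with its near-identical neighbour Ly6c2.

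**Figure D3:**
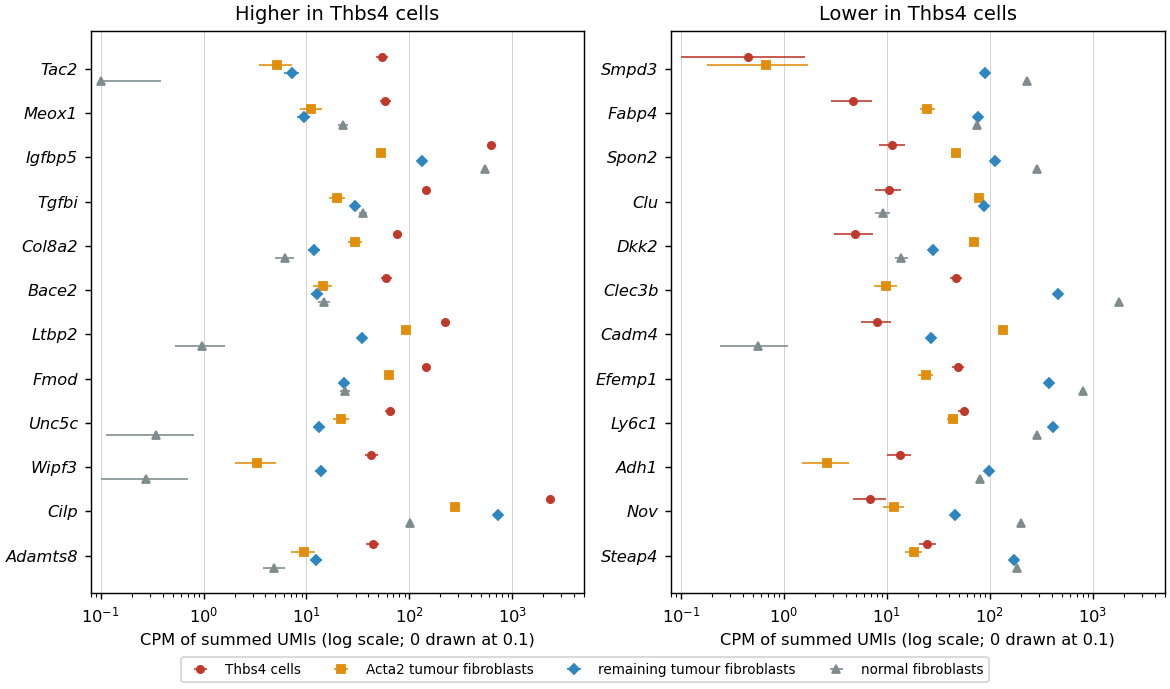
CPM of summed UMIs (x axis, log scale, 0 drawn at 0.1) with exact 95% counting intervals (lines) for the 12 top genes in each direction by fold in Thbs4 cells over other tumour fibroblasts. Red circles are Thbs4 cells, orange squares Acta2 tumour fibroblasts, blue diamonds the remaining tumour fibroblasts and grey triangles normal fibroblasts; Cilp stood at 2345 CPM in Thbs4 cells and under 800 CPM in each other group.

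Gene lists are described by the members with a mean of at least 20 CPM, how many were 2-fold apart and their median log2 fold, beside the 1.54% higher and 2.49% lower over all genes. A gene low in 1 group can reach the 20 CPM through the other group alone, so the counts describe the measured genes and not whole lists. Of 11 measured genes of a tendon and fibrocartilage list, 4 were higher in Thbs4 cells than in other tumour fibroblasts (Fmod, Cilp, Cpxm2 and Col11a1) and 0 lower, with a median of 0.53. Cpxm2, a secreted carboxypeptidase-like protein, was at 348 and 145 CPM (2.40-fold, 2.26 to 2.55). Col11a1, a minor fibrillar collagen, was at 62.0 and 25.8 CPM (2.40-fold), and its log2 fold of 1.26 became 0.92 after thinning and 0.60 without the 35 Thbs4 cells that also met the Acta2 threshold. The tendon cell genes Scx, Mkx and Tnmd and the cartilage gene Acan were close to nil. Scx had 4 UMIs in Thbs4 cells and 15 in other tumour fibroblasts, Mkx 6 and 29, Tnmd 3 and 6, and Acan 3 and 1.

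Of the thrombospondin family, Thbs1 was at 2238 CPM in Thbs4 cells and 1655 in other tumour fibroblasts (1.35-fold, 1.32 to 1.38). Thbs2 was at 180 and 254 CPM (0.709-fold) and Thbs3 at 46.7 and 68.3 CPM (0.684-fold), and none of the 3 was 2-fold apart. Comp, the closest relative of Thbs4 and a cartilage protein, was under the level limit at 11.3 CPM in Thbs4 cells and 2.91 in other tumour fibroblasts (3.89-fold, 2.66 to 5.64), and 0 Comp UMIs were found in normal fibroblasts.

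Elastic fibre genes split. Of 17 measured, 3 were higher (Ltbp2, Eln and Mfap4) and 3 lower (Fbln2, Emilin2 and Efemp1). Eln (elastin) was at 2850 CPM in Thbs4 cells, against 964 in other tumour fibroblasts (2.96-fold, 2.89 to 3.02), 688 in Acta2 tumour fibroblasts and 279 in normal fibroblasts. Mfap4, which binds elastin, was at 797 and 374 CPM in Thbs4 cells and other tumour fibroblasts (2.14-fold, 2.05 to 2.22). Fbln2 (fibulin-2) was at 681 and 1405 CPM (2.06 times lower, 1.99 to 2.14). It came within 2-fold after thinning and when every cell was weighted the same. Fn1 (fibronectin) was at 545 and 1809 CPM (3.32 times lower, 3.19 to 3.46).

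On a list of matrix genes of myofibroblast-like tumour fibroblasts, 5 of 22 were higher, among them Tgfbi, Col8a2, Col8a1 and Postn, and 3 lower (Fndc1, Fn1 and Spon2). Fndc1 came within 2-fold with equal weights for cells. The median of the list, -0.18, became 0.11 when every cell was weighted the same, so no direction is given. Postn (periostin) was at 2343 CPM in Thbs4 cells and 1147 in other tumour fibroblasts (2.04-fold, 2.00 to 2.09). Col8a1, a chain of type VIII collagen, was at 1542 and 615 CPM (2.51-fold). Cthrc1 and Lrrc15, often used to name myofibroblast-like cells, were not 2-fold apart. Cthrc1 was at 100.0 and 190 CPM and Lrrc15 at 40.3 and 60.2 CPM.

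Genes of inflammatory tumour fibroblasts were mostly level or lower. Of 28 measured, 1 was higher and 8 lower, with a median of -0.34. The higher gene was Cxcl14, a chemokine, at 1977 and 732 CPM (2.70-fold, 2.63 to 2.77). Il6 was at 1494 and 1198 CPM (1.25-fold). Among the lower genes were the chemokines Cxcl13, with 10 UMIs or 2.21 CPM in Thbs4 cells against 143 CPM (64.7 times lower, 35.1 to 135), and Cxcl12, at 62.0 against 241 CPM (3.89 times lower, 3.45 to 4.399). Ptx3, a soluble pattern recognition protein, was at 109 and 473 CPM (4.35 times lower). Of the complement genes, 5 of 12 (C4b, Cd55, Cfb, C3 and Clu) were 2-fold lower, 0 higher, and the median was -0.94. C3 was at 932 CPM in Thbs4 cells and 2925 CPM in other tumour fibroblasts (3.14 times lower, 3.04 to 3.24).

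Genes of universal adventitial fibroblasts had 11 of 25 lower and 2 higher (Igfbp5 and Cxcl14), with a median of -0.90. Dpp4, a surface peptidase, was at 8.19 and 37.0 CPM (4.52 times lower, 3.25 to 6.46). Pi16, another name-giving gene of these cells, was level, at 557 and 516 CPM. Retinoid and lipid genes had 6 of 20 lower and 0 higher, among them Aldh1a2, an enzyme of retinoic acid synthesis, at 95.2 and 282 CPM (2.97 times lower, 2.69 to 3.28). Of growth factor genes, 3 of 27 were higher and 1 lower. Bdnf, a neurotrophin, was at 50.0 and 13.6 CPM (3.69-fold, 3.103 to 4.38) and Mdk (midkine) at 486 and 209 CPM (2.33-fold, 2.21 to 2.45).

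TGF-beta and activin genes split, with 3 of 26 higher and 6 lower. Tgfb3, a TGF-beta ligand, was at 250 and 98.8 CPM (2.53-fold, 2.36 to 2.72) and Ctgf, a target of TGF-beta signalling, at 771 and 353 CPM (2.18-fold, 2.10 to 2.27). Inhba, which encodes activin A, was at 48.7 and 154 CPM (3.17 times lower, 2.77 to 3.65). Of 33 mesenchymal transcription factors, 2 were higher and 2 lower. Mef2c was at 104 and 31.8 CPM (3.27-fold, 2.92 to 3.68), and Osr1 at 15.5 and 39.2 CPM (2.53 times lower, 1.98 to 3.27). Tbx2 was at 57.8 and 25.4 CPM (2.27-fold) and came within 2-fold after thinning, while Barx1, at 22.8 and 48.5 CPM (2.13 times lower), came within 2-fold after thinning and with equal weights for cells.

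**Figure D4:**
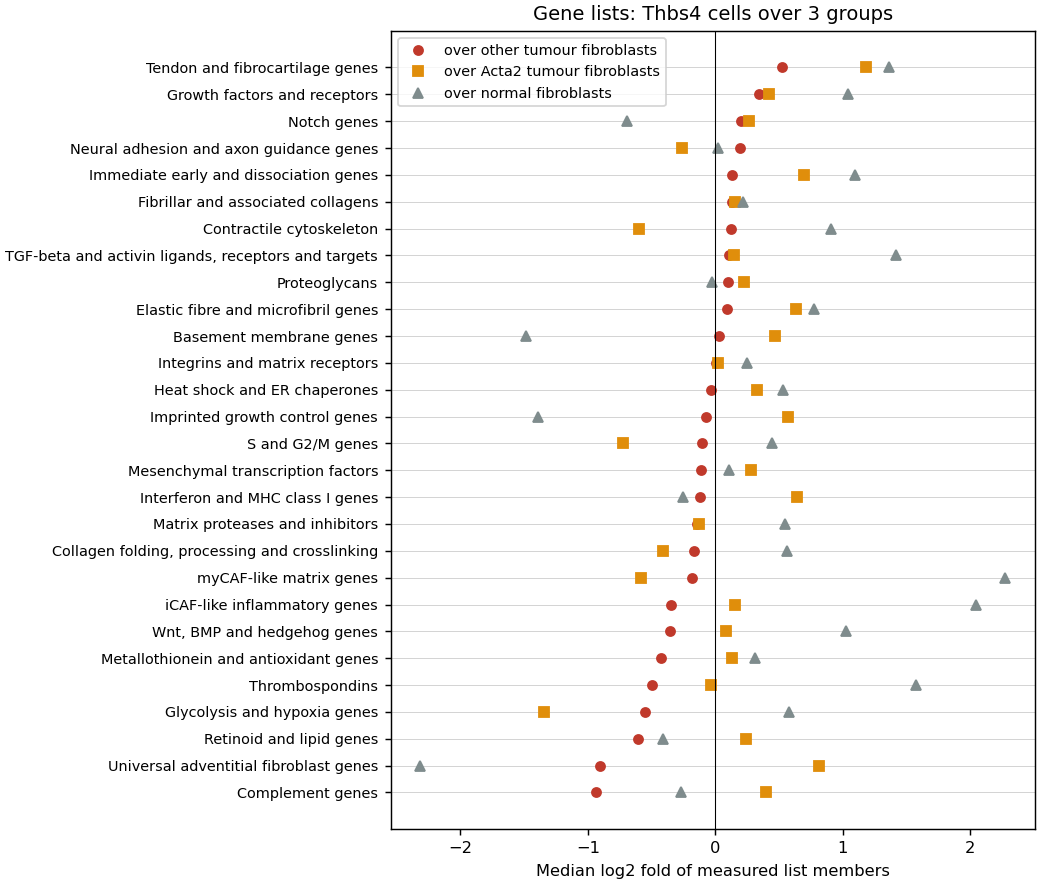
Median log2 fold (x axis) of the measured members of each gene list (y axis) in Thbs4 cells over other tumour fibroblasts (red circles), over Acta2 tumour fibroblasts (orange squares) and over normal fibroblasts (grey triangles); all 3 share the Thbs4 cells. Tendon and fibrocartilage genes had positive medians in all 3, 0.53, 1.18 and 1.36, while universal adventitial genes had -0.90, 0.82 and -2.32.

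Of the 340 Thbs4 cells, 35 also met the Acta2 threshold (10.3%, 7.28 to 14.03%), against 209 of 1921 other tumour fibroblasts (10.9%, 9.52 to 12.4%). The intervals of these shares overlap. The 35 cells were deeper, with a median of 17177 UMIs against 11837 in the other 305. They had 4189 CPM of Tagln, 553 CPM of Tpm2 and 2113 CPM of Tnc, against 941, 123 and 607 CPM in the other 305. Thbs4 and Cilp were less far apart, at 2005 and 1968 CPM in the 35 cells, against 2179 and 2411 CPM. Other genes outside the contractile list differed in both directions. Ltbp2 was at 387 against 191 CPM and Fn1 at 1019 against 462 CPM, while Eln was at 1882 against 3020 CPM and Clec3b at 8.87 against 53.9 CPM. By the principal components of variable genes without Thbs4, neighbours of the 35 cells were Thbs4 cells in 60.4% of cases, against 60.5% for the other 305.

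Between Thbs4 cells and Acta2 tumour fibroblasts, 294 of 5571 measured genes were at least 2-fold higher in Thbs4 cells (5.28%) and 201 at least 2-fold lower (3.61%), 8.89% in all. Depth differed, with medians of 12230 and 28203 UMIs. Chodl (chondrolectin) led the higher genes, at 96.9 CPM in Thbs4 cells and 1.16 in Acta2 tumour fibroblasts (83.7-fold, 40.3 to 209). Apod, a lipid carrier, was at 167 and 7.61 CPM (21.99-fold, 16.3 to 30.3), although it was 2.32 times lower (2.16 to 2.51) than in other tumour fibroblasts as a whole, at 389 CPM. Bdnf was at 50.0 and 3.31 CPM (15.1-fold, 9.56 to 25.2) and Igfbp5 at 619 and 53.4 CPM (11.6-fold, 10.3 to 13.03). Slc40a1 (ferroportin), the iron exporter, was at 44.0 and 2.81 CPM (15.7-fold, 9.54 to 27.4). The potassium channel gene Kcnn3, at 42.5 and 1.49 CPM, and the lipid transporter gene Abca8a, at 111 and 6.62 CPM, were 28.5-fold and 16.8-fold higher, but neither was 2-fold apart from other tumour fibroblasts as a whole.

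Among the 12 named genes with the lowest folds over Acta2 tumour fibroblasts were genes of dividing cells, which reached the level limit through the Acta2 tumour fibroblasts alone. Top2a was at 2.43 CPM in Thbs4 cells, against 84.4 (34.7 times lower, 19.2 to 69.9), Mki67 at 1.55 against 46.0 (29.7 times lower, 14.2 to 74.5) and Cenpa at 2.66 against 49.6 (18.7 times lower, 10.5 to 36.6). The remaining tumour fibroblasts lay between, with 19.7 CPM of Top2a and 7.63 CPM of Mki67. Ccl24, an eosinophil chemokine, had 2 UMIs in Thbs4 cells and 265 in Acta2 tumour fibroblasts (99.0 times lower, 27.1 to 822). Aldh1a3, an enzyme of retinoic acid synthesis, was at 11.3 and 120 CPM (10.6 times lower, 8.00 to 14.4).

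Contractile genes placed Thbs4 cells between the Acta2 and the remaining tumour fibroblasts. By CPM alone, Thbs4 cells lay between these groups in 22 of 23 measured contractile genes, above both in 1 (Pdlim5) and below both in 0. The groups were split on Acta2, so contractile genes that go with Acta2 were set apart by that choice. The count is therefore a description of levels. Over all 5651 measured genes outside the rule, 44.9% lay between, 32.9% above both and 22.1% below both. Without the 35 Thbs4 cells that met the Acta2 threshold the count was again 22 of 23, with 1 below both. Tagln was at 1427 CPM in Thbs4 cells, 3014 in Acta2 tumour fibroblasts and 200 in the remaining tumour fibroblasts. Tpm2 (tropomyosin 2) was at 188, 895 and 116 CPM and Myl9, a myosin light chain, at 70.2, 306 and 34.6 CPM in the same order. Cnn1 (calponin 1) had 6 UMIs in Thbs4 cells and 204 in Acta2 tumour fibroblasts. Of 25 contractile genes measured against Acta2 tumour fibroblasts, 7 were 2-fold lower in Thbs4 cells, Acta2 itself among them by choice of the groups, and 0 higher. Against all other tumour fibroblasts 0 of 24 were 2-fold apart, with a small positive median of 0.12. It became -0.02 without the 35 cells, while the compared cells kept theirs. With every cell weighted the same the median was 0.36, and after thinning it was 0.28, so its size depended on the setting. Immediate early and dissociation genes moved too: 8 of 27 were higher than in Acta2 tumour fibroblasts and 1 lower (median 0.70), against 0 higher and 1 lower of 27 over all other tumour fibroblasts. Their part in the differences was not tested.

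Glycolysis and hypoxia genes mostly did not lie between. By CPM alone Thbs4 cells lay below both groups in 17 of 20 measured genes, between in 3 and above both in 0, and below both in 16 without the 35 cells. Slc16a3, which exports lactate, was at 11.3 CPM in Thbs4 cells, 93.8 in Acta2 tumour fibroblasts and 22.8 in the remaining tumour fibroblasts. Bnip3, a hypoxia-induced gene of mitochondrial clearance, was at 17.5, 96.0 and 42.2 CPM. Hk1 (hexokinase 1) was at 23.2, 32.8 and 23.5 CPM, a difference from the remaining tumour fibroblasts that was within counting error. Of 22 genes measured against Acta2 tumour fibroblasts, 15 were 2-fold lower and 0 higher, with a median of -1.34. Against all other tumour fibroblasts, 3 of 20 were 2-fold lower (Bnip3, Adm and Slc16a3) and the median was -0.55.

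Adventitial genes lay between in 16 of 25 by CPM alone, above both groups in 5 and below both in 4, beside 44.9% between over all measured genes. The groups were again those split on Acta2, so this count too is a description of levels. Against Acta2 tumour fibroblasts, 10 of 22 were higher in Thbs4 cells and 0 lower, with a median of 0.82. Clec3b was at 47.1 CPM in Thbs4 cells, 9.76 in Acta2 tumour fibroblasts (4.83-fold, 3.605 to 6.56) and 464 in the remaining tumour fibroblasts. Pi16 was at 557, 86.7 and 654 CPM in the same order. Smoc2, a matricellular protein of basement membranes, did not lie between, at 358, 70.1 and 345 CPM. Tendon genes had 7 of 11 higher and 1 lower, Sox9, with a median of 1.18. Matrix genes of myofibroblast-like cells had 10 of 22 lower, among them Lrrc15 at 40.3 and 172 CPM (4.28 times lower, 3.65 to 5.03) and Tnc at 833 and 1787 CPM (2.15 times lower, 2.07 to 2.23). Of that list, 3 genes were higher (Tgfbi, Mmp11 and Col8a2).

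For several of these genes the level followed the Thbs4 level of the cell, also among cells under the threshold. Cilp, Ltbp2, Meox1, Igfbp5, Smpd3 and Clec3b were named for their folds in Thbs4 cells over other tumour fibroblasts. A difference between bands on either side of the threshold was therefore set by that choice. Tumour fibroblasts were put into 5 bands of Thbs4 per 10000 UMIs: 0 (1656 cells), above 0 and under 5 (265), 5 to under 10 (95), 10 to under 20 (117) and 20 or more (128). Median depth was 9388 UMIs in the lowest band and 12052 to 12896 UMIs in the others. From low to high, Cilp was at 501, 1178, 2059, 2200 and 2693 CPM, and Ltbp2 at 40.4, 87.8, 144, 210 and 289 CPM. Meox1 was at 9.57, 10.9, 26.4, 50.2 and 90.3 CPM. Cells under the threshold were thus close to cells at 0, and the level rose at the threshold and again from band to band among members. Igfbp5 was at 92.0, 216, 439, 432 and 925 CPM.

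Smpd3 and Clec3b stepped down mostly below the threshold. Smpd3 was at 81.2, 8.62, 1.55, 0 and 0 CPM from the lowest to the highest band, and Clec3b at 404, 118, 68.3, 54.1 and 24.8 CPM. Fn1 was at 1917, 1307, 736, 495 and 446 CPM. Tagln was at 810, 1237, 1312, 1397 and 1542 CPM, a shallow climb, while Acta2 was highest in the cells just under the threshold, at 489, 653, 391, 367 and 196 CPM. Tnc had no order, at 608, 1037, 706, 1103 and 684 CPM. Col1a1, a gene of the rule, was at 8238, 10692, 8173, 6018 and 5599 CPM.

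**Figure D5:**
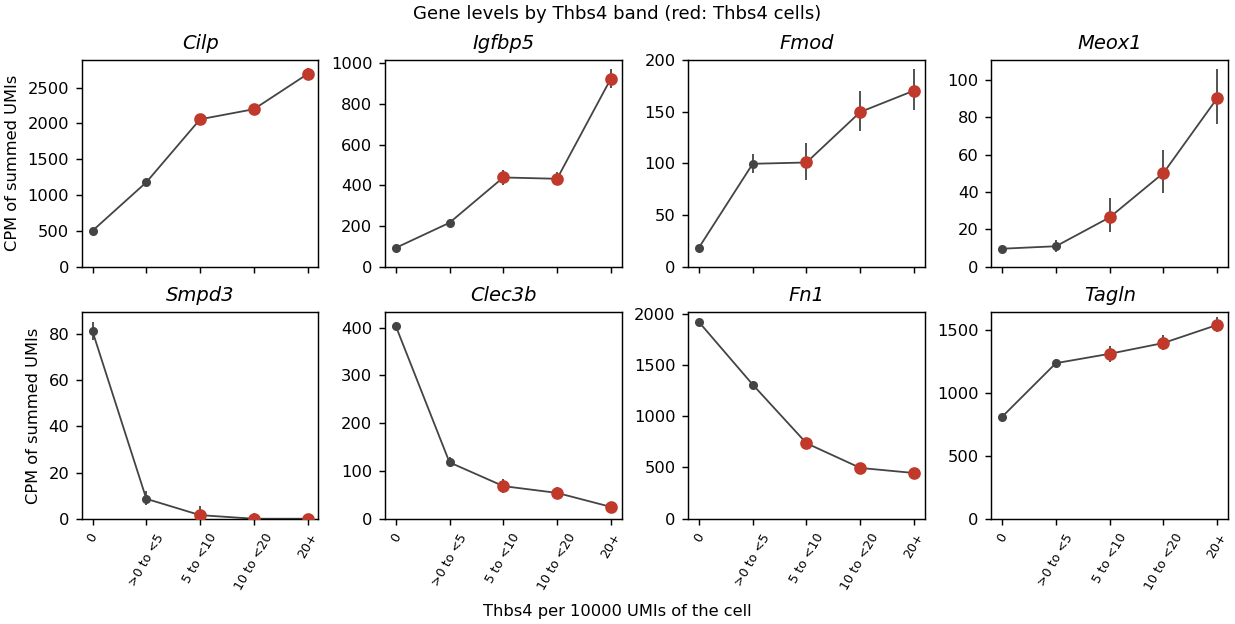
CPM of summed UMIs (y axes, from 0) of 8 genes in 5 bands of Thbs4 per 10000 UMIs (x axis, low to high), with exact 95% counting intervals; red points are bands of Thbs4 cells and dark points bands under the threshold. Cilp went up over the bands, from 501 CPM at 0 to 2693 CPM at 20 or more, Smpd3 and Clec3b went down, and Tagln changed less.

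Against normal fibroblasts, 495 of 6149 measured genes were at least 2-fold higher in Thbs4 cells (8.05%) and 682 at least 2-fold lower (11.1%), 19.1% in all. The median log2 fold was -0.19, and scaling by TMM, which moved all log2 folds by 0.27, gave 665 higher and 431 lower, so the larger side depended on the scaling. Median ratio scaling moved them by 0.30 and gave 689 and 408. Folds from here on are unscaled CPM ratios. The libraries also differed in other measures: a Y-linked UMI was found in 1 tumour fibroblast and 791 normal fibroblasts, the summed level of 11 acinar genes was 24.6 CPM in Thbs4 cells and 765 CPM in normal fibroblasts, and that of 11 macrophage genes was 17.3 and 401 CPM. The part of these in the differences was not tested.

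Many of the genes that were high in Thbs4 cells were close to absent from normal fibroblasts. Spp1 (osteopontin), a secreted phosphoprotein, had 7365 UMIs in Thbs4 cells and 1 UMI in normal fibroblasts. Spp1 was also at 1823 CPM in Acta2 tumour fibroblasts and 3021 CPM in tumour immune cells, and 168 of the 340 Thbs4 cells had 0 Spp1 UMIs. The part of RNA from other cells was not tested. Tac2 had 245 UMIs in Thbs4 cells and 1 in normal fibroblasts. Ltbp2 was at 221 and 0.973 CPM (227-fold, 134 to 416), Unc5c at 64.6 and 0.348 CPM (186-fold, 78.8 to 577) and Chodl at 96.9 and 0.904 CPM (107-fold, 62.1 to 203). Lrrc15 had 182 UMIs and 0 UMIs, at least 193-fold higher, and A2m (alpha-2-macroglobulin) 429 and 0 UMIs, at least 455-fold higher, with the 0 set to 3 counts over the group.

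Tagln was at 1427 CPM in Thbs4 cells and 48.0 in normal fibroblasts (29.7-fold, 27.5 to 32.2), Tnc at 833 and 7.58 CPM (110-fold, 90.8 to 134) and Cilp at 2345 and 102 CPM (22.9-fold, 21.7 to 24.2). Acta2 was at 310 and 34.7 CPM (8.92-fold, 8.05 to 9.90), and at 63.5 CPM in the 305 Thbs4 cells under the Acta2 threshold, a level that the threshold itself limits. Igfbp5, in contrast, was level with normal fibroblasts, at 619 and 541 CPM (1.14-fold, 1.09 to 1.19), and Meox1 was at 58.4 and 22.5 CPM (2.59-fold, 2.20 to 3.06). Genes that were 2-fold higher than in other tumour fibroblasts were thus not all low in normal fibroblasts.

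Genes that were lower in Thbs4 cells than in normal fibroblasts included Smpd3, with 2 UMIs against 3283, Sema3c, a guidance ligand, at 3.32 against 278 CPM (83.7 times lower, 50.7 to 150), and Pcsk6, a proprotein convertase, at 9.30 against 390 CPM (41.9 times lower, 31.0 to 58.3). Clec3b was at 47.1 against 1817 CPM (38.5 times lower, 33.7 to 44.3), and Tek, the angiopoietin receptor, at 1.33 against 70.3 CPM (52.9 times lower, 24.2 to 145). Of 30 universal adventitial genes, 22 were lower and 2 higher (Cxcl14 and Has1), with a median of -2.32. Basement membrane genes had 12 of 17 lower and 1 higher (Lama1), with a median of -1.48. Nid2 (nidogen 2) was at 12.8 against 142 CPM (11.1 times lower, 8.52 to 14.6), and Lama1, a laminin chain, at 54.4 against 1.46 CPM (37.3-fold, 23.9 to 61.3). Within the tumour this list was not lower in Thbs4 cells by count. Over other tumour fibroblasts 0 of 15 basement membrane genes were lower and 1 higher, with a median of 0.03 that became -0.21 after thinning. Over Acta2 tumour fibroblasts 0 of 15 were lower and 2 higher (median 0.47).

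Several lists had positive medians over normal fibroblasts, among them the contractile genes, with 11 of 24 higher and 0 lower (median 0.90), matrix genes of myofibroblast-like cells, with 15 of 23 higher and 6 lower (2.28), and genes of inflammatory tumour fibroblasts, with 16 of 26 higher and 2 lower (2.05). TGF-beta and activin genes had 14 of 26 higher and 3 lower (1.42), tendon genes 6 of 10 higher and 0 lower (1.36), and growth factors and receptors 13 of 26 higher and 2 lower (1.04). Immediate early and dissociation genes moved the same way, with 13 of 26 higher and 1 lower (1.10), and heat shock and chaperone genes had 7 of 28 higher and 0 lower (0.53). Over other tumour fibroblasts, which shared the digestion, these 2 lists had 0 of 27 and 0 of 28 higher. Over Acta2 tumour fibroblasts, which shared it too, they had 8 of 27 and 4 of 28 higher. The part of these 2 lists in the differences from normal fibroblasts was not tested. Il6 was at 1494 CPM in Thbs4 cells and 47.1 CPM in normal fibroblasts (31.7-fold, 29.3 to 34.3). Il11, a cytokine that shares a receptor subunit with it, was at 53.6 and 1.46 CPM (36.7-fold, 23.5 to 60.3). Il6 UMIs were also found in 17.6% of the tumour immune cells, which had 469 CPM.

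The fibroblast rule limits Ptprc, Pecam1, Cdh5 and keratin UMIs, so low immune, endothelial and epithelial sums were in part set by that choice. Genes of most other cell types were low in Thbs4 cells, but those of pericytes or smooth muscle were above other tumour fibroblasts. All 6 adipocyte genes were at 0 UMIs in Thbs4 cells, against a sum of 2.26 CPM in other tumour fibroblasts and 57.6 CPM in normal fibroblasts. The sum of 7 endothelial genes was 32.3, 38.5 and 131 CPM in the same order, with 3 of the 7 at 0 in Thbs4 cells, and that of 7 T or NK genes was 0.221, 0.444 and 0 CPM. Genes of pericytes or smooth muscle summed to 206 CPM over 10 genes, against 161 CPM in other tumour fibroblasts, 314 CPM in Acta2 tumour fibroblasts and 215 CPM in normal fibroblasts, and Des (desmin) gave 115 of the 206 CPM. Of 7 mesothelial genes, 5 were at 0 in Thbs4 cells, and Wt1 gave 100.0 of the summed 101.15 CPM, against 153 CPM of Wt1 in other tumour fibroblasts. In the 9 epithelial genes used, Sox9 gave 63.5 of 80.6 CPM.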

How the data were processed

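The authors deposited unnormalized UMI counts of 27998 genes for each barcode of 2 libraries of 10x 3′ single-cell RNA sequencing. They were made with Cell Ranger 3.1.0 on mm10, per the submitters' processing notes (2942 tumour and 5437 normal barcodes). From these counts, cells were filtered and grouped as described, and UMIs were summed per group and given as CPM with exact Poisson ratio intervals (scipy 1.17.1). For folds, a 0 was replaced by a floor of 3 counts. Neighbours and Leiden clusters came from scanpy 1.11.5 and igraph 0.11.9, with Thbs4 left out. Cells with the top Scrublet doublet scores were marked at 0.8% per 1000 cells and kept. For shares of cells, each cell was thinned to 5000 UMIs, leaving out 16 of 340 Thbs4 cells, 359 of 1921 other tumour fibroblasts and 154 of 1499 normal fibroblasts. The calculation was checked on simulated sums. Gene positions came from GENCODE vM21 (GRCm38), matched by Ensembl identifier, and 797 of 807 list genes were found.

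The cells, gene lists and tests were chosen with earlier results of these data known. Genes were named if they were among the 12 highest or lowest folds of a comparison, with a UMI in at least 10% of cells of the higher group and leaving out mitochondrial, ribosomal, sex-linked and unnamed genes and markers of other cell types, if they were among the 3 highest or lowest measured members of a described list, or if they belonged to the thrombospondin, tendon, contractile or myofibroblast lists. Some genes the rule selects are left out for space, and 1 is not reported here. Cxcl12, Dpp4, Pi16 and Il6 over other tumour fibroblasts, Clec3b over Acta2 tumour fibroblasts, and Igfbp5, Meox1 and Clec3b over normal fibroblasts were named after their values were seen. The alternatives were a Thbs4 threshold of 10, at least 3 Thbs4 UMIs, stricter filters, doublet scores, equal weights for cells, thinning, TMM and median ratio scaling, other level limits, cells at 0 Thbs4 as the compared group, and other neighbour settings.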

Additional observations from a re-analysis of the deposited data

Results flagged for a closer look

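Among the 369 tumour barcodes that failed the cell filters and entered no comparison, 18 had a Thbs4 UMI, and 14 of these stood at 5 per 10000 UMIs or more. They held 22 Thbs4 UMIs in all, and the median barcode of this kind had 952 UMIs, so that 1 UMI is already over the threshold. Of the 821 normal barcodes that failed the filters, 0 had a Thbs4 UMI. Among tumour cells that passed the filters and fell outside the fibroblast rule, 7 of 312 had a Thbs4 UMI and 2 met the threshold, against 1 and 0 of 3117 such normal cells.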

How the results depend on the processing

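The number of Thbs4 cells stayed between 245 and 340, and the share of Thbs4 cells among their neighbours between 59.4% and 60.5%, under the alternatives run for each. The counts of genes 2-fold apart moved most with the level a gene needed. With a mean of at least 50 CPM, 48 genes were higher and 75 lower over other tumour fibroblasts, 151 and 109 over Acta2 tumour fibroblasts, and 298 and 295 over normal fibroblasts. With a mean of at least 5 CPM the counts were 173 and 319, 635 and 459, and 748 and 1584 in the same order; more or fewer genes were measured. Scaling left the counts within the tumour close and cut the genes lower than in normal fibroblasts to 431 (TMM) and 408 (median ratio). Of 4885 values of single named genes under alternatives, 3825 stayed within their counting interval, 1060 moved beyond it, and 0 genes that were 2-fold apart changed direction. Of 962 such values of list medians, 203 moved and 66 changed sign, 2 of them for a median past 2-fold: Wnt, BMP and hedgehog genes over normal fibroblasts, 1.02, became -0.04 with Thbs4 at 10 per 10000 and -0.30 with a mean of at least 5 CPM. No paired analysis was possible because each group is 1 library with no replicate numbers. Leaving out a replicate was not possible for the same reason. Intervals cover counting error, so differences between mice, sorts or libraries are not in them. Genes near the floor, 3 counts or 0.664 CPM in Thbs4 cells, are limited by depth. The alternative without the 35 Thbs4 cells that met the Acta2 threshold was chosen after seeing the data.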
